A study of Oryza sativa with 5 samples.

Results

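The longest continuous stretches of H3K27me3 in rice pollen mother cells were 372 domains of at least 5000 bp, out of 16414 regions of this mark. H3K27me3 is trimethylation of histone H3 at lysine 27. Regions were chosen by peak coverage: a base counted where both H3K27me3 replicates had a peak, touching pieces were joined, and pieces of 5000 bp or more were kept as domains. The number and length of the domains follow from that choice, and their peak fold comes from the same peaks. These values are described without a test. Peaks of H3K4me3, trimethylation at lysine 4 of the same histone, played no part in the choice.

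The cells were male meiocytes of Oryza sativa at early prophase I, the stage at which chromosomes begin to pair and recombine. Low numbers of cells were cross-linked, and chromatin was cut with micrococcal nuclease and sonication before immunoprecipitation. Both groups used here, H3K27me3 and H3K4me3, came from this cell type with no treatment or genotype named, and had 2 libraries each, which the labels call biological replicates. An input library is part of the series of 5 samples and was not analysed here. Each library came as a list of peaks, which leaves the depth in reads unknown, and all values describe called peaks. The lists held 19774 and 19450 H3K27me3 peaks and 29941 and 27411 H3K4me3 peaks. The peak names of H3K27me3 replicate 1 carry the word subsample and those of replicate 2 do not, those of the H3K4me3 libraries carry merge and uniq, and the part of such handling in any difference between libraries was not tested. Cell purity could not be checked from peak lists.

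In plants as in animals, H3K27me3 is written by Polycomb repressive complex 2, which can also bind the mark and extend it to neighbouring nucleosomes. In plants it usually covers the bodies of single genes kept silent in a given tissue, many of them developmental regulators, and longer domains can span several genes. H3K4me3 is typical of the starts of transcribed genes, and its peak summit, the position of highest signal in a peak, serves here as a point marker. The sources used here do not give the genome build behind the positions. The domains therefore were not assigned to genes and no sequence is printed.

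The domains were mostly shorter than 10 kb. Their median length was 6653 bp, the quartiles were 5688 and 8492 bp, and the range was 5007 to 29037 bp. Of the 372, 129 (34.7%) were shorter than 6000 bp, 112 reached 8000 bp, 51 reached 10000 bp, 9 reached 15000 bp and 3 reached 20000 bp. Together they covered 2.82 Mb, which was 16.1% of all H3K27me3 bases and 0.756% of the 372.8 Mb spanned by the peaks. Lengths ran on through the limit without a step, with 14 domains in the 100 bp from 5000 bp up and 18 regions in the 100 bp below it. The shortest was the domain from 23025081 to 23030087 on chromosome 2 (5007 bp), then came 15753088 to 15758100 on chromosome 5 (5013 bp) and 5106707 to 5111723 on chromosome 8 (5017 bp). The 3 regions nearest below the limit measured 4997 bp (20249056 to 20254052 on chromosome 2), 4995 bp (1088429 to 1093423 on chromosome 3) and 4993 bp (12012758 to 12017750 on chromosome 10).

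**Figure D1:**
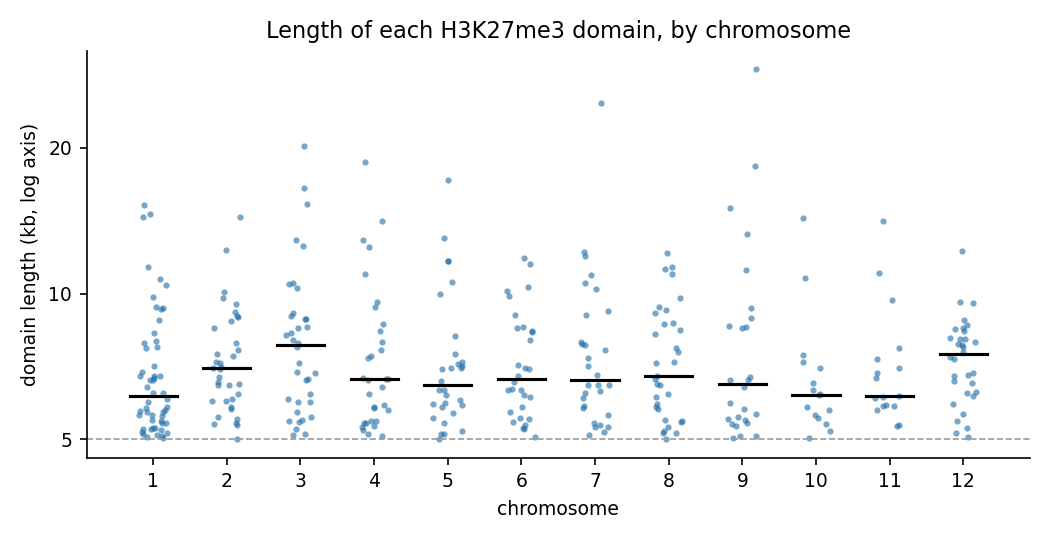
Length of each of the 372 domains in kb on a log axis, by chromosome, with 1 point per domain, a black bar at the chromosome's median and a dashed line at the 5000 bp limit. Most points lie below 10 kb on every chromosome, and the longest, of 29037 bp, lies on chromosome 9.

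The peaks that held the domains were among the strongest of their lists by the fold enrichment that the authors' caller gave. The median domain lay in a peak of 3.59-fold enrichment in replicate 1 and 3.50-fold in replicate 2, which ranked at percentile 96.3 and 96.4 of all folds in the respective list. In 291 of 372 domains the peak was at or above the 90th percentile in both lists. The weakest reached only the 57.5th percentile in replicate 1 and the 48.9th in replicate 2. Across the domains the ranks of the 2 lists went together (Spearman's rho 0.71 over 372 domains), while length and rank were only loosely related (0.29 in replicate 1 and 0.31 in replicate 2). Fold did not choose the members, but it comes from the same peaks that did, so these values are descriptions only. Each domain lay within a single peak of each replicate.

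All 12 chromosomes carried domains, from 16 on chromosome 10 to 54 on chromosome 1. Chromosomes 10 and 11 had the fewest per Mb, 0.690 and 0.586, and the other 10 had 0.901 to 1.25. Chromosome 11 was not poor in H3K27me3 regions as such. It had 52.6 regions per Mb, the most of any chromosome, but only 17 of its 1526 regions, or 1.11% (95% Wilson interval 0.697 to 1.78%), were domains. On chromosome 12, 32 of 1126 regions were domains, or 2.84% (2.02 to 3.98%). These intervals, like all in this text, cover counting error only, and neighbouring regions are not independent.

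Both replicates placed chromosome 11 last. Peaks of 5000 bp or more numbered 1.38 per Mb there in replicate 1 and 0.621 in replicate 2, the lowest density of the 12 chromosomes in each list. Chromosome 1 had the highest density in each, at 2.31 and 1.55 per Mb. Because each domain lies within such a peak of each list, these densities are not independent of those of the domains. The low place of chromosome 10 rested on replicate 2, with 0.862 per Mb, whereas its 1.81 per Mb in replicate 1 lay above the values of 5 other chromosomes. On the first 3 Mb of chromosomes 11 and 12 there were 5 domains each, covering 31379 and 32256 bp.

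The longest domain of each chromosome measured between 11820 and 29037 bp. On chromosome 4 it lay at 33478454 to 33497137 (18684 bp), and both replicates drew it as a single peak, 19049 bp wide in replicate 1 and 18793 bp wide in replicate 2. Others were 19254334 to 19271524 of chromosome 5 (17191 bp), 24823392 to 24837801 of chromosome 2 (14410 bp) and 17880504 to 17894807 of chromosome 10 (14304 bp). On chromosome 11 it lay at 11098142 to 11112252 (14111 bp), directly before a stretch of 3.05 Mb without a domain. Those of chromosomes 6, 8 and 12 were the shortest of the 12, at 11820 bp (24449849 to 24461668), 12138 bp (766754 to 778891) and 12253 bp (25413789 to 25426041). The longest domain of every one of the 12 chromosomes held at least 1 summit in each H3K4me3 library. Among all 51 domains of 10000 bp or more, 72.5% held one in replicate 1 and 78.4% in replicate 2, and this share rose with length.

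Along the chromosomes the domains lay toward the ends. Each chromosome was cut into 10 equal parts, and the parts were pooled over chromosomes. The first part held 70 domains (18.8%) and the last 57 (15.3%), while the 2 parts just before the middle held 11 and 10. The outermost parts, first and last together, held 34.1% of the domains (Wilson interval 29.5 to 39.1%) and 24.9% of all H3K27me3 regions (24.3 to 25.6%). The middle 2 parts held 7.80% of the domains (5.48 to 11.0%) and 13.6% of all regions (13.1 to 14.2%). Regions of 2000 to under 5000 bp lay between, with 28.5% in the outermost parts and 10.3% in the middle 2. For regions under 500 bp these shares were 22.9% and 15.0%, and they changed steadily over the length classes up to the domains. Of the peaks of 5000 bp or more in 1 replicate alone, 30.1% in replicate 1 and 35.2% in replicate 2 lay in the outermost parts. In the middle 2 parts these shares were 10.1% and 8.13%. Each domain lies within such a peak of each list, so these shares are not independent of the domains' own.

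The share of regions that were domains fell from 3.45% in the first part to 1.01% in the fourth, and it was 2.35 to 2.77% in the last 4 parts. The domains' share in the first part was above that of H3K4me3, whose libraries had 12.2% and 12.3% of their summits there. At the other end the domains (15.3%) and the H3K4me3 summits (15.2% and 15.7%) had about equal shares. Within 2 Mb of a chromosome end lay 76 domains (20.4%, Wilson interval 16.6 to 24.8%), against 16.4% of all regions, in windows that make up 12.9% of the span.

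**Figure D2:**
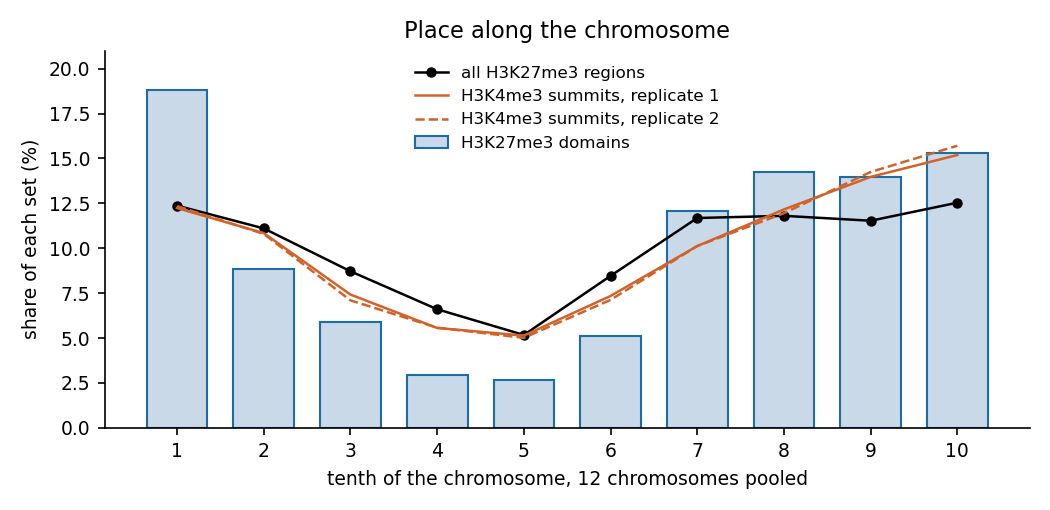
Share of each set, in percent, in each of 10 equal parts of the chromosome with the 12 chromosomes pooled: bars for the 372 domains, a black line for all H3K27me3 regions and orange lines for the summits of both H3K4me3 libraries. The domains are scarcest in the 2 parts just before the middle, at 2.96% and 2.69%, below all other sets there.

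Long stretches had no domain at all. Every chromosome had at least 1 stretch of 3 Mb or more without a domain, 28 in all, and together they made up 41.7% of the span. The longest lay on chromosome 12 from 5591008 to 17302863 (11.7 Mb), on chromosome 8 from 9387735 to 20632424 (11.2 Mb) and on chromosome 4 from 6232600 to 15973516 (9.74 Mb). Taken over all 28, shorter H3K27me3 regions numbered 30.4 per Mb, against 43.0 per Mb over the whole span, and 21 of the 28 were below that value. The H3K4me3 density over the stretches was 0.0558 and 0.0502 summits per kb in the 2 libraries, and 20 and 21 of them were below the span's density. The stretches were not alike. In the chromosome 12 stretch the H3K4me3 density was 0.0284 and 0.0232 per kb, and in one on chromosome 4 from 21168585 to 24461376 it was 0.142 and 0.130, against 0.0803 and 0.0735 over the span. The start of chromosome 9 had no domain in its first 5.92 Mb and 9.97 regions per Mb, whereas a stretch on chromosome 3 from 12590355 to 15866627 had 65.6. Repeats and assembly gaps, where peaks can be missed, were not checked.

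The densest window of 2 Mb was on chromosome 12 from 24500001 to 26500000, with 13 of that chromosome's 32 domains. Next came chromosome 1 from 500001 to 2500000 with 10 and chromosome 7 from 1 to 2000000 with 9. The fourth, on chromosome 8 from 20500001 to 22500000 with 8, began shortly before the end, at 20632424, of that chromosome's longest stretch without a domain.

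Domains had other domains nearby more often than shorter regions did. Of the 372, 157 had another domain within 100 kb, which was 42.2% (Wilson interval 37.3 to 47.3%), and 28.3% of all H3K27me3 regions had one. The share rose with length, from 26.5% of regions under 500 bp (25.5 to 27.6%) to 37.8% of those of 2000 to under 5000 bp (35.5 to 40.0%), whose interval overlaps that of the domains. Within the domains it did not change steadily with length, being 40.3% at 5000 to under 6000 bp and 43.1% at 10000 bp or more. The gap to the next domain had a median of 139.6 kb and quartiles of 22.5 and 453.8 kb. It exceeded 1 Mb in 46 domains and reached 5.45 Mb. These are counts of neighbours and were not tested against placement.

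When domains up to 50 kb apart were chained, 121 of 372 (32.5%) fell into 52 clusters, and 251 stood alone. Of the clusters 42 were pairs, 5 held 3 domains, 4 held 4 domains and 1 held 6. The largest lay on chromosome 12 from 25318290 to 25479265, where 35 regions, among them 6 domains of 5055 to 12253 bp, covered 45.6% of 160976 bp. Its domains were uneven in strength: the one at 25364349 to 25369403 was at percentile 57.9 of fold in replicate 1 and 58.7 in replicate 2, against 94.8 and 94.7 for the one at 25318290 to 25327860. Another cluster of 4 domains lay close by on the same chromosome, from 25153273 to 25226994, with 49.2% of its 73722 bp covered. The second in size, on chromosome 2 from 27870670 to 27949721, had 4 domains and 51.0% coverage of 79052 bp.

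The closest pair in that chromosome 2 cluster was split by 287 bp. Replicate 2 ended a peak at 27877693 and began the next at 27877981, while replicate 1 had a single peak of 16270 bp over both. Another pair, on chromosome 12, was split by 350 bp between 25219803 and 25220154. Of all domains, 36 had another domain within 1000 bp and 66 within 5000 bp.

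Shorter H3K27me3 regions stood directly beside most domains. A shorter region lay within 5 kb of 336 domains, or 90.3% (Wilson interval 86.9 to 92.9%), and 81.9% of all regions had one so near. The corresponding share of regions of 2000 to under 5000 bp was 88.3% (86.8 to 89.7%), and the intervals overlap. The share depended on the threshold for peaks. Once peaks under a −log10 q of 5 were dropped from every list, 55.9% of domains had a shorter region within 5 kb. The gap from a domain to its nearest neighbour of any length was 277 bp at the least, 455 bp in the median and 81959 bp at the most, and 299 domains (80.4%) had one within 1000 bp. For regions of 2000 to under 5000 bp the median gap was 482 bp, and 73.7% had a neighbour within 1000 bp. Over all regions these values were 651 bp and 61.8%. No 2 H3K27me3 regions anywhere lay closer than 277 bp, so shorter gaps do not exist in these lists. The sources used here do not give the caller's merging distance.

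The number of shorter regions within 10 kb of a domain was 4 in the median, with quartiles of 2 and 5 and a maximum of 11. These 1349 neighbours had a median length of 783 bp, against 576 bp for the 14693 other shorter regions, and 20.1% against 10.2% reached 2000 bp. H3K27me3 covered 28.9% of the 10 kb on either side of the domains, not counting the domain itself, and 4.70% of the span. Without the peaks under a −log10 q of 5 the flank coverage was 18.6%. With all peaks kept, it was 15.3% beside regions under 500 bp and 22.8% beside those of 2000 to under 5000 bp, against the domains' 28.9%. Among domains the flank coverage with all peaks varied widely, from 0 to 87.7%, with 59 domains at 50% or more and 41 under 5%.

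A few domains stood alone. The nearest H3K27me3 region was 82.0 kb away from the domain on chromosome 9 at 22205752 to 22210825 (5074 bp), 74.6 kb from that on chromosome 9 at 19252327 to 19257649 (5323 bp) and 27.1 kb from that on chromosome 3 at 1336949 to 1344963 (8015 bp). The replicates' disagreement summed over both boundaries was 1285, 68 and 416 bp in these 3, against a median of 1412.5 bp over all domains. The chromosome 3 and the more distal chromosome 9 domain each held 1 summit in each H3K4me3 library, and the other held none.

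Joining regions across short gaps gave longer blocks. With gaps of up to 1000 bp bridged, the 372 domains lay in 346 blocks with a median of 10449 bp, 184 of which reached 10 kb and 25 reached 20 kb. Only 73 blocks consisted of a single region, and 25 held more than 1 domain. The 2 longest blocks were both on chromosome 9, at 15802145 to 15842840 (40696 bp, 96.8% covered) and at 13913851 to 13953329 (39479 bp, 96.5% covered). Each was made of 4 regions, 2 of them domains. A block on chromosome 3 from 6018587 to 6054100 (35514 bp) held 6 regions, and one on chromosome 1 from 2143626 to 2177318 (33693 bp) held 10, with 86.4% covered.

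The 2 replicates drew nearly the same outline at some boundaries and very different ones at others. Of the 744 domain boundaries, 409 (55.0%, Wilson interval 51.4 to 58.5%) were placed within 500 bp of each other, and 342 (46.0%) within 200 bp. Over all H3K27me3 regions 67.9% of boundaries were within 500 bp, and 60.3% (58.7 to 61.9%) for regions of 2000 to under 5000 bp. Within 200 bp these shares were 50.7% and 47.0%, nearer to the domains' 46.0%. A boundary here is the inner of the 2 replicates' peak ends, and the disagreement is the distance to the outer one. Its median was 326.5 bp for the domains and its quartiles 51 and 1564 bp. It exceeded 2000 bp at 163 boundaries and 5000 bp at 63. Both ends agreed within 500 bp in 103 domains (27.7%), 1 end only in 203, and neither in 66. The share with both ends in agreement was larger over all regions, 7680 of 16414, and for those of 2000 to under 5000 bp, 672 of 1774.

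Replicate 1 was usually the wider. It reached farther out at 523 of the 744 boundaries (70.3%, Wilson interval 66.9 to 73.5%), replicate 2 at 219, and at 2 they were equal. Where replicate 1 reached farther the median distance was 587 bp, and where replicate 2 did it was 78 bp. The median peak holding a domain was accordingly 8703 bp wide in replicate 1 and 6940 bp in replicate 2. In 187 domains the whole replicate 2 peak was the domain, and in 34 the whole replicate 1 peak was. Replicate 1 also had more long peaks in all, 730 of 5000 bp or more, against 455 in replicate 2.

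At most disagreements of more than 200 bp the shorter-reaching replicate resumed within the longer peak. It had another peak there at 278 boundaries (37.4% of all) and none at 124 (16.7%). How much of the longer peak these further peaks covered was not measured. Replicate 1 was the longer in 240 of the 278, with a median of 2679 bp between the boundaries. Of the domains, 206 shared their replicate 1 peak with at least 1 other H3K27me3 region, up to 6 in 1 peak, and 37 did so in replicate 2.

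**Figure D3:**
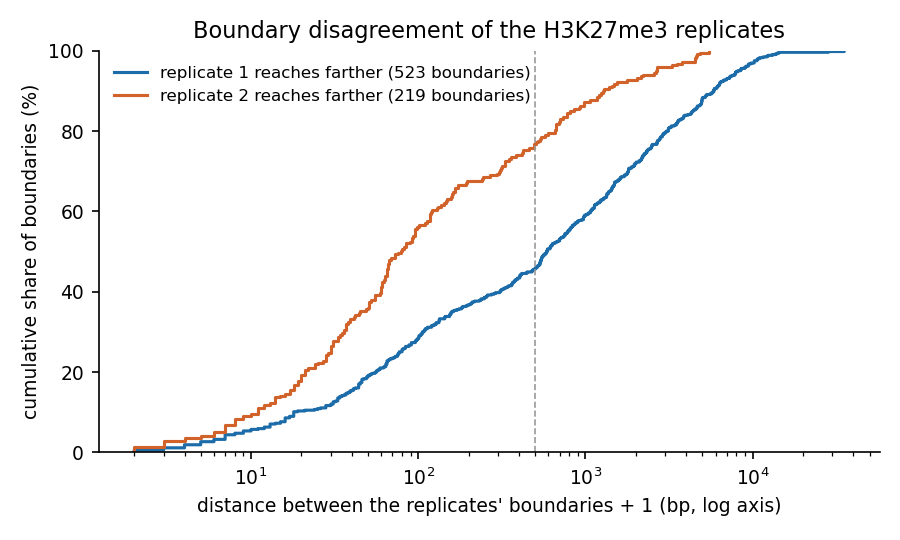
Cumulative share of domain boundaries, in percent, by the distance between the replicates' peak ends in bp (log axis, 1 bp added), for boundaries where replicate 1 (blue, 523) or replicate 2 (orange, 219) reached farther out. The dashed line marks 500 bp, under which lie 45.7% of the former and 76.7% of the latter.

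The largest disagreement was beside the longest domain. On chromosome 9 replicate 1 had a single peak of 40853 bp, which in replicate 2 was divided, so that the domain at 15802145 to 15807547 (5403 bp) differed by 35297 bp at its right boundary and by 153 bp at its left. A peak of 36040 bp in replicate 1 on chromosome 3 likewise held 6 regions, among them the domains at 6046425 to 6053311 (6887 bp) and 6028630 to 6045162 (16533 bp). On chromosome 8 the domain at 27462861 to 27469615 (6755 bp) lay in a replicate 1 peak of 22503 bp with 3 other regions. At the other extreme, both ends of the domain on chromosome 8 at 28237578 to 28243789 (6212 bp) differed by 13 bp in all. The sum was 15 bp for that on chromosome 2 at 27940189 to 27949721 (9533 bp) and 16 bp for that on chromosome 7 at 24466815 to 24474164 (7350 bp). Length and disagreement were nearly unrelated across the domains (Spearman's rho 0.09, n = 372).

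Of the domains, 58.2% had an H3K4me3 summit inside, as the mean of both H3K4me3 libraries. Once peaks under a −log10 q of 5 were dropped from every list, the mean was 48.7%, with 55.9% in replicate 1 and 41.5% in replicate 2. With all peaks, replicate 1 of H3K4me3 placed a summit in 214 domains, or 57.5% (Wilson interval 52.5 to 62.4%), and replicate 2 in 219, or 58.9% (53.8 to 63.8%). Among all H3K27me3 regions, which are mostly much shorter, the shares were 22.0% and 19.9%. Both libraries had a summit in 190 domains, replicate 1 alone in 24, replicate 2 alone in 29, and neither in 129 (34.7%, 30.0 to 39.6%). Most domains with a summit had 1 only, namely 156 in replicate 1 and 129 in replicate 2. There were 45 and 68 with 2, 12 and 17 with 3, and 1 and 5 with 4 or more.

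Per length, the domains held 0.102 and 0.119 H3K4me3 summits per kb in replicates 1 and 2. That was 1.27 and 1.62 times the density over the span, or 1.27 times in each library without peaks under a −log10 q of 5. Shorter H3K27me3 regions held more per kb in both libraries, 0.142 and 0.143 at 2000 to under 5000 bp, 0.233 and 0.225 at 1000 to under 2000 bp and 0.362 and 0.334 at 500 to under 1000 bp. Within the domains the density was 0.106 and 0.126 per kb at 5000 to under 6000 bp, 0.111 and 0.135 from there to under 8000 bp, 0.0926 and 0.117 from there to under 10000 bp and 0.0919 and 0.0934 at 10000 bp or more. The decline with length above 5000 bp was smaller in replicate 1 than the difference between the libraries in each of the first 3 of these classes. The share of domains with a summit rose over the same classes from 46.5% and 45.7% to 72.5% and 78.4%. With 2 libraries per mark no test of these densities was made.

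**Figure D4:**
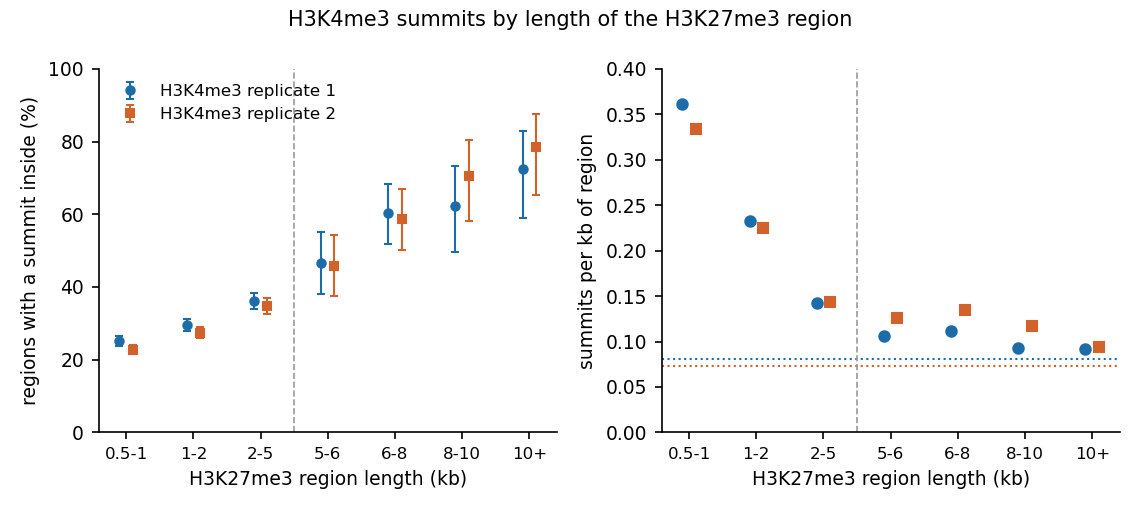
Left, share of H3K27me3 regions with an H3K4me3 summit inside, in percent with 95% Wilson intervals, and right, summits per kb of region, both by region length in kb and for H3K4me3 replicates 1 (blue) and 2 (orange). Domains lie to the right of the dashed line, where the share rises to 72.5% and 78.4% while the density approaches that over the span (dotted lines, 0.0803 and 0.0735 per kb).

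The H3K4me3 peaks inside domains were weak ones. Their median rank by fold was the 25.6th percentile in replicate 1 and the 31.1st in replicate 2, and only 1.74% and 7.14% of them were above the upper quartile of their list. That was also so in shorter H3K27me3 regions, where the medians at 2000 to under 5000 bp were the 21.7th and 34.9th percentile. Their median widths were 510 and 349 bp, against 570 and 430 bp in the whole lists. Of the 287 summits inside in replicate 1, 62.7% had a replicate 2 summit within 200 bp, close to the 64.6% of all replicate 1 summits. Of the 336 in replicate 2 it was 53.6%, below the 70.6% of all replicate 2 summits. Nearly all of these peaks lay wholly within the domain, 92.3% in replicate 1 and 97.0% in replicate 2.

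Inside the domains the summits had no favoured place. With each domain cut into 5 equal parts, in the direction of the coordinates, replicate 1 had 64, 61, 54, 57 and 51 summits and replicate 2 had 59, 66, 73, 78 and 60. Within 1 kb of a boundary lay 28.9% of the replicate 1 and 25.3% of the replicate 2 summits, and 26.4% of the domain bases. The median distance from a summit to the nearer boundary was 1919 bp and 1979 bp. Where a domain held several summits, neighbouring ones were 1851 bp apart in the median in replicate 1 (73 pairs) and 1361 bp in replicate 2 (117 pairs).

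Just outside the domains H3K4me3 summits were rare, and they became frequent again farther out. In the first 500 bp outside the boundaries there were 6 summits in replicate 1 and 4 in replicate 2 over 363.3 kb, or 0.0165 and 0.0110 per kb. The densities were 0.0512 and 0.0285 per kb at 500 to 1000 bp, 0.0695 and 0.0680 at 1000 to 2000 bp and 0.0677 and 0.0622 at 2000 to 5000 bp. From 10 to 50 kb out they were 0.102 and 0.0926 per kb, above the span's 0.0803 and 0.0735. With all peaks kept, the density inside was thus about equal to that of the wider surroundings in replicate 1. In replicate 2 it was somewhat above that of the surroundings, and both libraries had a trough between. Going outward from a boundary, the first summit was met after 10298 bp in the median in replicate 1 and 11419 bp in replicate 2, and within 5000 bp at 26.2% and 24.7% of boundaries.

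**Figure D5:**
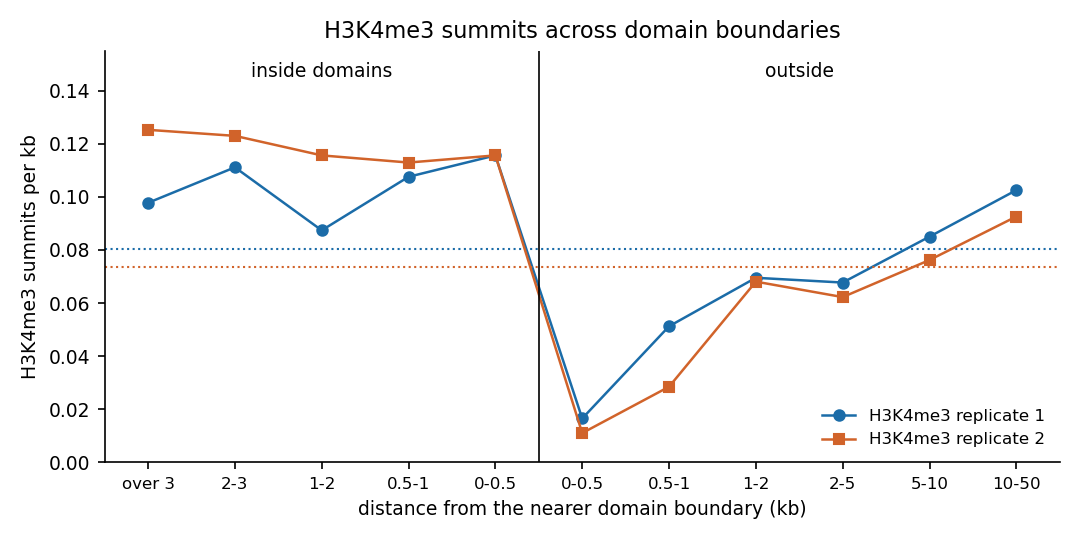
H3K4me3 summits per kb by distance in kb from the nearer domain boundary, inside (left of the line) and outside, for replicates 1 (blue) and 2 (orange), with dotted lines at each library's density over the span. Both libraries drop from 0.116 per kb in the last 500 bp inside to 0.0165 and 0.0110 per kb in the first 500 bp outside.

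The trough was also present in bases without an H3K27me3 peak. Where neither H3K27me3 replicate had a peak, the first 1000 bp outside held 6 summits of replicate 1 and 1 of replicate 2 over 303.5 kb, or 0.0198 and 0.00329 per kb. In the first 500 bp of such sequence replicate 2 had 0 summits in 150.8 kb, which allows up to 0.0199 per kb (3 counts over that length). In the zones between the 2 replicates' boundaries that only replicate 1 covered there were 6 and 3 summits over 250.5 kb, or 0.0240 and 0.0120 per kb. In those that only replicate 2 covered there were 0 summits of either library over 44.2 kb, too little sequence to show a trough. In the first 500 bp outside, sequence with a peak in replicate 2 only had 0 summits in 40.9 kb. That allows up to 0.0734 per kb, close to the 0.0735 over the span in H3K4me3 replicate 2. In bases of other H3K27me3 regions, called in both replicates, the first 1000 bp outside held 14 and 10 summits over 164.4 kb, or 0.0852 and 0.0608 per kb, which was lower than inside the domains in both libraries. Between 1000 and 5000 bp out the picture differed with H3K27me3: sequence in other H3K27me3 regions had 0.0962 and 0.0939 summits per kb and sequence with no H3K27me3 peak 0.0462 and 0.0422. Sequence with a peak in replicate 1 only had 0.120 and 0.104, and sequence with a peak in replicate 2 only had 0.0245 in each library, from 2 summits each.

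The domains without an H3K4me3 summit in either library were shorter than those with one in both, with medians of 6192 and 7057 bp. Their H3K27me3 peaks had median ranks at percentile 95.05 of fold in replicate 1 and 96.4 in replicate 2, against 96.7 and 96.5. The surrounding 100 kb on either side held 0.0900 summits per kb in the median against 0.0975, and 33.3% against 33.7% lay in the outermost parts of chromosomes. Among the 51 domains of 10000 bp or more, 10 had no summit. The longest of them lay on chromosome 4 at 15973517 to 15985992 (12476 bp), at the end of that chromosome's longest stretch without a domain.

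The most summits were in the domain on chromosome 1 at 42199082 to 42214339, with 5 in replicate 1 and 4 in replicate 2 over 15258 bp. By the sum of both libraries the next was chromosome 4 at 28408747 to 28418104 (9358 bp, 3 and 4 summits). With a sum of 6 there followed 5 domains. With 3 in each library these were 41736976 to 41746305 on chromosome 1 (9330 bp), 2177949 to 2185803 on chromosome 7 (7855 bp), 22292921 to 22299514 on chromosome 12 (6594 bp) and 32486238 to 32491585 on chromosome 2 (5348 bp). The other, from 39523190 to 39529408 on chromosome 1 (6219 bp), had 2 and 4. Their rank by H3K27me3 fold varied. The chromosome 7 and chromosome 12 domains lay in peaks of lower rank than most domains, at percentiles 89.3 and 92.2 of fold in replicate 1 and 85.0 and 89.5 in replicate 2. The domain on chromosome 2 with a sum of 6 was at 99.6 and 99.1. The domain on chromosome 2 at 27940189 to 27949721 (9533 bp), at the 99.8th percentile in both lists, held no summit in either library.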

How the data were processed

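Chromatin of rice male meiocytes was immunoprecipitated for H3K4me3 or H3K27me3, per the labels' protocols. Groups and replicate numbers came from the sample titles. MACS2 and Bowtie2 are listed, with deepTools, SAMtools, Picard and fastp, per the submitters' processing notes. The sources used here do not give versions, the control, thresholds, the genome build or the depth in reads. A looser threshold or a deeper library can give more and longer peaks, which would change the regions that reach the fixed 5000 bp limit. The effect of depth was not tested. The deposited fold enrichment is a ratio from the authors' caller. Its median over the domains was printed for each H3K27me3 list, and the fold otherwise served only as a rank within 1 list. The deposited −log10 p and −log10 q values are those of the authors' caller, and −log10 q of at least 5 served as an alternative threshold. The deposited score was not used.

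Intervals were handled with Python 3.11.15, numpy 2.4.6 and pandas 2.3.3, Wilson intervals computed with scipy 1.17.1 and figures drawn with matplotlib 3.10.9. Positions are 1-based. Each chromosome was taken to end at its last peak in any of the 4 lists. Gaps are edge to edge, flanks exclude the domain itself, and bases outside several boundaries were counted once at their smaller distance. The code for intervals was checked on simulated lists with known answers for 5 measures. These were the number of domains, boundary agreement, the share with a summit, and summit densities inside and just outside. Neighbour distances, flank coverage and clusters were not checked in this way. The limit, measures and regions named were chosen with earlier results of these data known. Named were the longest domain of each chromosome, the 3 largest clusters, and the extremes in summits (5, to which 2 tied domains were added after values were seen), boundary disagreement (5 at each end), isolation (3) and closeness to the limit (3 on each side), of which not all are printed. Blocks, stretches without a domain, dense windows, the longest domain without a summit and single pairs were chosen after values were seen. Alternatives were the threshold, each replicate left out, joining across 500 bp, limits of 4000 and 10000 bp, and other distances. All measures are descriptions, so no test was run.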

Additional observations from a re-analysis of the deposited data

How the results depend on the processing

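No paired analysis was possible because the values are descriptions of peak lists with no test, and replicates of different marks share only a number. Of 73 values recomputed under alternatives, 35 stayed within the replicate spread, counting interval or 1.5-fold range of the reported one. Boundary agreement needs both H3K27me3 replicates, so it has no value with 1 left out. The measures are the number of domains (372), median length (6653 bp), share with another domain within 100 kb (42.2%), share with a shorter region within 5 kb (90.3%), flank coverage (28.9%), boundaries within 500 bp (55.0%), and, as means of both H3K4me3 libraries, share with a summit (58.2%), summits per kb inside (0.111) and in 500 bp outside (0.0138) and summits within 1 kb of a boundary (27.1%).

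With a −log10 q of at least 5, 349 domains remained in number, a shorter region was near 55.9%, flank coverage was 18.6%, 48.7% held a summit, and densities were 0.0824 inside and 0.00881 outside. With regions up to 500 bp apart joined, there were 699 domains, the median was 7040 bp, 59.4% had another domain near and 74.7% a shorter region, flank coverage was 22.1%, boundary agreement 76.0% and density outside 0.0188. With a limit of 4000 bp, the values were 633 domains, 5394 bp, 57.3% with another domain near, 52.4% with a summit and 34.6% of summits near a boundary. With 10000 bp they were 51 domains, 12138 bp, 11.8%, 75.5% and 19.2%, with boundary agreement 50% and densities of 0.0927 inside and 0.0198 outside. Leaving out 1 H3K27me3 replicate gave 455 to 730 domains, medians of 6566 to 7110 bp, another domain near in 49.0 to 59.9%, a shorter region near in 87.0 to 90.1%, flank coverage of 27.5 to 29.5%, densities inside of 0.0992 to 0.106 and outside of 0.0112 to 0.0158. Over these and the settings with 1 H3K4me3 replicate left out, 55.9 to 58.9% held a summit and 24.0 to 28.9% of summits were near a boundary, and with 1 H3K4me3 replicate alone the densities were 0.102 to 0.119 inside and 0.0110 to 0.0165 outside.

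Other distances gave 32.5% with another domain within 50 kb, 86.3% with a shorter region within 2 kb, flank coverage of 34.3% in 5 kb, 46.0% of boundaries within 200 bp, 0.0266 summits per kb in 1000 bp outside and 13.9% of summits within 500 bp of a boundary. The cause of these shifts was not tested. With the threshold, the joining, the limits or an H3K27me3 replicate changed as above, the density inside exceeded that outside in both H3K4me3 libraries, by 2.32 to 22.9 times where any summit lay outside. With 10000 bp, replicate 2 had no summit outside. The size of these ratios is uncertain because few summits lay outside, 6 in replicate 1 and 4 in replicate 2 with the settings unchanged. The inside density was 1.14 to 1.64 times that of the span.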
